A study of Mus musculus with 10 samples.

Results

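The V1 domain is the ATP-splitting part of the vacuolar ATPase (V-ATPase), the proton pump that acidifies lysosomes, endosomes and synaptic vesicles. Its subunits are encoded in these data by 9 genes, Atp6v1a, Atp6v1b2, Atp6v1c1, Atp6v1d, Atp6v1e1, Atp6v1f, Atp6v1g1, Atp6v1g2 and Atp6v1h, chosen by symbol from the 34254 genes counted. Retinal ganglion cells (RGCs), the neurons whose axons form the optic nerve, were profiled by droplet single-cell RNA-seq in 10 libraries. The 6 uninjured libraries came from wild-type 129S1/SvImJ mice of both sexes aged 12 weeks, and the 4 injured libraries from mice of that strain and age, again of both sexes, taken 2 weeks after optic nerve crush (ONC), a lesion that severs the RGC axons. Cells were enriched on antibodies to Thy1 after removal of macrophages and, in the study's methods but not in the labels, of amacrine cells. Retinas were pooled, 10 per batch, with 6000 cells loaded, so that no library stands for a single animal. The labels do not say which libraries came from separate animals, and p-values then measure only the spread between these samples.

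The files held 1683 uninjured and 1609 injured cells, the latter with 1188 distinct barcodes, and the injured number differs from that in the study's methods. Library totals ran from 2839693 to 23180399 unique molecular identifiers (UMIs, each standing for 1 captured RNA molecule) in uninjured and from 4698799 to 8860536 in injured libraries. Injured cells were shallower, with median UMIs per cell of 11257 to 14695 against 20437 to 34337. Each of Rbpms, Slc17a6, Sncg and Tubb3, genes that mark RGCs, had a UMI in 100% of cells of every library, but the study identified RGCs by these same genes, so this share is not an independent check.

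Several libraries stood apart. Injured 3 and injured 4 shared 421 barcodes, out of 527 and 471 cells, and the difference between their gene counts was no larger than sampling gives (median chi-square over sampling noise 0.954, with 1.44 to 28.0 in the remaining library pairs). Their average was used as a single injured sample, named injured 3/4, so comparisons are between 6 uninjured and 3 injured samples. Uninjured 2 and uninjured 4 shared 1 barcode, and the remaining pairs shared 0. Xist, an RNA of the inactive X chromosome of female cells, had UMIs in 62.1% and 67.4% of cells of injured 1 and injured 2 and in at most 0.569% of cells of any other library, although the labels give both sexes for all. UMIs of mCherry, a fluorescent protein, marked 86.0% of cells of injured 3, 84.3% of injured 4, 7.99% of injured 1 and 15.0% of injured 2, and 0% of uninjured cells. The labels mention neither mCherry nor a vector that carries it, so whether injured 3/4 differs from uninjured samples by the injury alone cannot be told. Libraries were also close in pairs: uninjured 1 and 2 (chi-square over sampling noise 1.75), uninjured 3 and 4 (1.81) and injured 1 and 2 (2.11). Between the first 2 of these pairs the values were 3.46 to 3.67. Between injured 1 or 2 and injured 3 or 4 they were 4.13 to 4.36. Whether libraries of a pair are independent samples is not given in the labels. Uninjured 5 and uninjured 6 were close to each other (1.44) and far from the other 4 uninjured samples (8.92 to 16.0). Their median Malat1 share, 1.72% and 1.83% of UMIs per cell, was the lowest of all libraries, and several V1 genes were higher in them. Which V1 genes passed the test, and both tested ratios, are given with and without them.

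V1 is built around a ring of alternating A and B subunits, and ATP is split in this ring. D and F form the rotor inside that ring, E and G form the peripheral stalks that hold it in place, C joins the stalks to the membrane domain, and H bridges stalk and rotor and silences V1 once it has come off the membrane. The membrane domain, Vo, carries the protons. In neurons the pump also loads synaptic vesicles, and the G2 isoform, encoded by Atp6v1g2, is known as the neuronal form beside the widely expressed G1, encoded by Atp6v1g1.

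The 9 genes lie on 8 chromosomes of the mouse genome (GRCm39, GENCODE vM39), with Atp6v1e1 and Atp6v1f both on chromosome 6. The isoform pair that changed in opposite directions lies at chr4:63462886-63471651 (Atp6v1g1, plus strand) and chr17:35452636-35457766 (Atp6v1g2, plus strand). Annotated genes on the opposite strand overlap Atp6v1a (Naa50, Gm61144), Atp6v1b2 (Slc18a1), Atp6v1c1 (1100001I12Rik), Atp6v1d (Pals1, Eif2s1), Atp6v1e1 (Slc25a18), Atp6v1g2 (Nfkbil1) and Atp6v1h (Rgs20, Gm71170), and genes on the same strand overlap Atp6v1e1 (Gm56003) and Atp6v1h (Gm17101). Whether the counting used strand is not given in the sources used here, so UMIs in these overlaps are uncertain. Promoter windows from 250 bases before to 50 bases after each canonical start site were searched on both strands for the E-box CACGTG, its longer form TCACGTGA, which contains it, and the GC box GGGCGG. The E-box was in 2 of the 9 windows (Atp6v1a and Atp6v1h) and in 7.81% of 21770 protein-coding windows of that length. TCACGTGA was in 0 of the 9 and in 1.11% of all. The GC box was in all 9 windows and in 42.5% of all, with 11 copies in the Atp6v1g1 window and 1 in the Atp6v1g2 window. A match is only a description of letters.

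The stretches below are shown because the G isoforms are the pair on which the results turn. Each is the nearest run of 80 bases before the canonical start site that lies in no annotated exon, at chr4:63462806-63462885 and chr17:35455452-35455531, both on the plus strand. Capitals mark the GC box, which the Atp6v1g1 stretch does not hold whole.
Atp6v1g1: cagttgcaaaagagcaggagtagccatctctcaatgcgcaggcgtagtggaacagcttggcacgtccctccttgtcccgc
Atp6v1g2: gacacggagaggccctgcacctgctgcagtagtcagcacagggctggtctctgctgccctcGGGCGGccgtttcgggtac

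Levels are given in CPM (counts-per-million units: a gene's UMIs relative to the sample's total UMIs after TMM scaling of the totals). UMI counts are per molecule and, for reads of the 3′ end, do not depend on transcript length. Whether intronic reads were counted is not given, and if they were, levels of different genes would also depend on gene length, so comparisons of level between genes carry that limit. All 9 V1 genes passed the filter on low counts, and 6 of the 9 passed the test between injured and uninjured samples: 4 were lower in injured RGCs (Atp6v1c1, Atp6v1d, Atp6v1e1, Atp6v1g2) and 2 were higher (Atp6v1g1, Atp6v1h). Of the 14234 genes tested, 6256 (44.0%) passed, 3026 (21.3%) higher and 3230 (22.7%) lower, with edgeR's quasi-likelihood test at a Benjamini-Hochberg adjusted p under 0.05. Among the 1455 genes at least as abundant as the lowest V1 gene, 46.2% passed. Groups did not overlap for 6 V1 genes and for 42.9% of all genes. The median log2 fold change was -0.19 over the V1 genes and -0.03 over all genes. The share of V1 genes past the test is a description of 9 genes and not a statement about V1 as a set. Without uninjured 5 and uninjured 6, 7 V1 genes passed, these 6 in the same directions and Atp6v1b2, as did 54.1% of all genes. Similar libraries were also summed into 5 samples: uninjured 1 and 2, uninjured 3 and 4, uninjured 5 and 6, injured 1 and 2, and injured 3/4. With similar libraries summed, 3 V1 genes (Atp6v1e1, Atp6v1g2, Atp6v1h) and 27.1% of all genes passed. Those lost there had log2 fold changes of -0.64 for Atp6v1c1, -0.67 for Atp6v1d and 0.97 for Atp6v1g1. With injured 3/4 as the only injured sample, 2 V1 genes (Atp6v1e1, Atp6v1h) and 20.7% of all genes passed, and the log2 fold changes of those that no longer did were -0.68 for Atp6v1c1, -0.68 for Atp6v1d, 1.12 for Atp6v1g1 and -2.10 for Atp6v1g2.

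**Figure D1:**
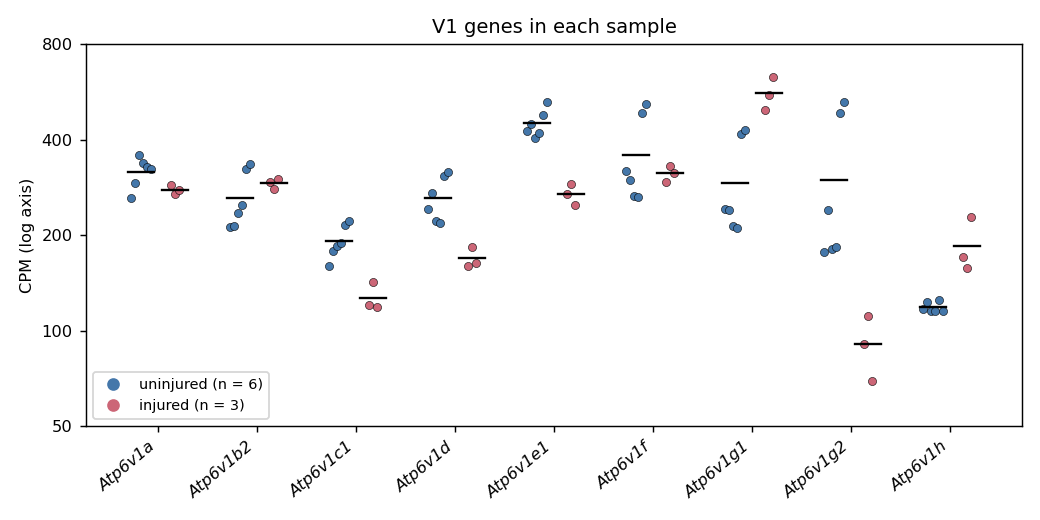
CPM of the 9 V1 genes on a log axis, with 1 point per sample, 6 uninjured and 3 injured, and a bar at each group's mean. Atp6v1g2 lies between 178 and 525 CPM in uninjured and between 69.3 and 112 CPM in injured samples, and Atp6v1g1 between 211 and 427 CPM against 497 to 630 CPM.

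Of the G subunits of the stalks, Atp6v1g2 fell and Atp6v1g1 rose. Atp6v1g2 stood at 178, 240, 181, 184, 484 and 525 CPM in uninjured 1 to 6 and at 90.7, 112 and 69.3 CPM in injured 1, injured 2 and injured 3/4. The groups did not overlap, and uninjured 5 and uninjured 6 were the high samples. Its log2 fold change was -1.72 ± 0.41 (SE), or 3.30-fold lower in injured RGCs (edgeR, adjusted p = 0.00537). Without uninjured 5 and uninjured 6 it was -1.12 (edgeR, adjusted p = 0.000134).

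Atp6v1g1 stood at 242, 239, 213, 211, 417 and 427 CPM in uninjured 1 to 6 and at 497, 554 and 630 CPM in injured 1, injured 2 and injured 3/4. All 3 injured samples were above all 6 uninjured ones, of which uninjured 5 and uninjured 6 were again the highest. Its log2 fold change was 0.94 ± 0.25 (SE), or 1.92-fold (edgeR, adjusted p = 0.00962), and 1.31 without these 2 samples (edgeR, adjusted p = 1.59e-06). With injured 3/4 limited to cells without mCherry UMIs, the log2 fold change was 0.53 and did not pass the test (edgeR, adjusted p = 0.272).

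The E subunit, which pairs with G in each stalk, fell. Atp6v1e1 was the most abundant V1 gene of uninjured RGCs, at 405 to 527 CPM with a median of 438 CPM, and stood at 269, 289 and 249 CPM in the injured samples. The groups did not overlap. The log2 fold change was -0.75 ± 0.14 (SE), with an adjusted p = 0.00125 in edgeR.

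Of the rotor subunits, D fell and F did not pass the test. Atp6v1d had 219 to 315 CPM in uninjured samples (median 257) and 160, 184 and 163 CPM in injured ones, without overlap, a log2 fold change of -0.64 ± 0.16 (SE; edgeR, adjusted p = 0.00744). Atp6v1f had 264 to 516 CPM in uninjured samples (median 308) and 295, 330 and 315 CPM in injured ones, which lay inside the uninjured range. Its log2 fold change of -0.19 ± 0.24 (SE; edgeR, adjusted p = 0.541) changed sign without uninjured 5 and uninjured 6, to 0.13 (edgeR, adjusted p = 0.342).

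The subunits that couple V1 to Vo or silence it moved apart from each other. Atp6v1c1 fell from 160 to 222 CPM in uninjured samples (median 187) to 120, 142 and 119 CPM in injured ones, a log2 fold change of -0.59 ± 0.14 (SE; edgeR, adjusted p = 0.00552). Atp6v1h, the least abundant V1 gene of uninjured RGCs, rose from 115 to 125 CPM (median 116) to 171, 157 and 228 CPM, a log2 fold change of 0.65 ± 0.13 (SE; edgeR, adjusted p = 0.00191). Neither gene's groups overlapped. The uninjured samples were closer together for Atp6v1h (SD 4.38 CPM, n = 6) than the injured ones (SD 37.3 CPM, n = 3).

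The A and B subunits of the ring did not pass the test. Atp6v1a stood at 262 to 358 CPM in uninjured samples (median 326) and at 288, 270 and 277 CPM in injured ones. Its log2 fold change was -0.19 ± 0.14 (SE; edgeR, adjusted p = 0.291). Atp6v1b2 stood at 212 to 335 CPM (median 241) and at 294, 279 and 301 CPM. Its log2 fold change was 0.16 ± 0.18 (SE; edgeR, adjusted p = 0.495), and it passed the test without uninjured 5 and uninjured 6, at 0.35 (edgeR, adjusted p = 0.01).

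**Figure D2:**
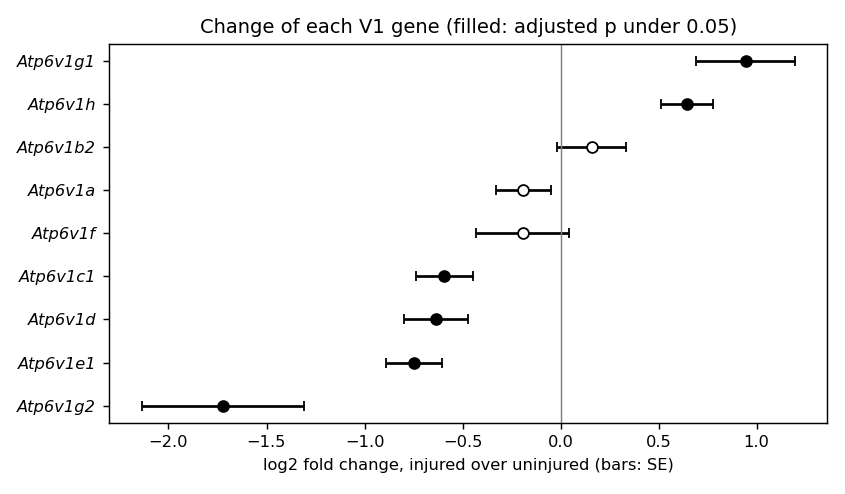
Log2 fold change of each V1 gene, injured over uninjured, with its standard error as a bar; filled points passed the test. The values run from -1.72 for Atp6v1g2 to 0.94 for Atp6v1g1, and the 3 open points are Atp6v1a, Atp6v1b2 and Atp6v1f.

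The order of levels differed between the groups. In uninjured RGCs Atp6v1e1 came first, at a mean of 451 ± 45.0 CPM (SD, n = 6), ahead of Atp6v1f in 5 of 6 samples. From Atp6v1f down to Atp6v1b2, each gene was above the next in only 2 to 4 of 6 samples, so neighbours in this order did not differ beyond their spread. Farther apart in it, Atp6v1f was above Atp6v1g1, Atp6v1d and Atp6v1b2, and Atp6v1a above Atp6v1d, in 6 of 6 samples. Atp6v1c1 was below Atp6v1b2, and Atp6v1h below Atp6v1c1, in 6 of 6 samples. In uninjured 1 to 4 alone, Atp6v1e1 (425 ± 18.0 CPM; SD, n = 4) and Atp6v1h kept these places, and Atp6v1g2 stood on average next above Atp6v1c1, being higher in 2 of 4 samples. In injured RGCs Atp6v1g1 came first, at 560 ± 66.7 CPM (SD, n = 3), above Atp6v1f in 3 of 3 samples, and Atp6v1g2 last, at 90.5 ± 21.2 CPM (SD, n = 3), below Atp6v1c1 in 3 of 3. Atp6v1g1 made up 11.2% ± 1.55 (SD, n = 6) of the summed V1 CPM of uninjured RGCs and 24.5% ± 2.09 (SD, n = 3) in injured samples. Atp6v1g2 made up 11.1% ± 3.59 (SD, n = 6) and 3.97% ± 0.947 (SD, n = 3). Over uninjured 1 to 4 the uninjured means were 10.2% ± 0.716 (SD, n = 4) for Atp6v1g1 and 8.84% ± 1.06 (SD, n = 4) for Atp6v1g2, whose share was 15.3% and 15.9% in uninjured 5 and uninjured 6.

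The ratio of Atp6v1g2 to Atp6v1g1 within a sample does not depend on that sample's scaling. It was 0.735, 1.00, 0.849, 0.873, 1.16 and 1.23 for uninjured 1 to 6, against 0.183 for injured 1, 0.202 for injured 2 and 0.110 for injured 3/4. The isoforms were thus near parity in uninjured RGCs, and the groups were far apart. The mean log2 ratio was -0.06 ± 0.28 (SD, n = 6) against -2.65 ± 0.47 (SD, n = 3), a ratio 6.02-fold lower in injured samples. The exact two-sided permutation test gave p = 0.0238, the smallest it can give for 6 against 3 samples, and 0.0476 adjusted over the 2 ratios tested. Without uninjured 5 and uninjured 6 the difference in log2 ratio went from -2.59 to -2.43, with an exact p = 0.0571, the smallest that 4 against 3 samples allow.

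The ratio of Atp6v1b2 to Atp6v1a, whose products alternate in equal number in the ring, was 0.655 to 1.03 in uninjured samples (median 0.772) and 1.02, 1.04 and 1.09 in injured ones. The highest uninjured sample, uninjured 6, lay above injured 1, so the groups overlapped. The mean log2 ratio was -0.30 ± 0.26 (SD, n = 6) against 0.07 ± 0.05 (SD, n = 3), with p = 0.0476 in the exact two-sided permutation test and 0.0476 adjusted over the 2 ratios. This ratio missed 0.05 in the exact test with cells thinned to 8000 UMIs (p = 0.143) and under 14 of the other alternatives run, of which 7 left too few samples to reach it. The difference in log2 ratio was 0.36, and 0.52 without uninjured 5 and uninjured 6, where the groups did not overlap (exact p = 0.0571).

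**Figure D3:**
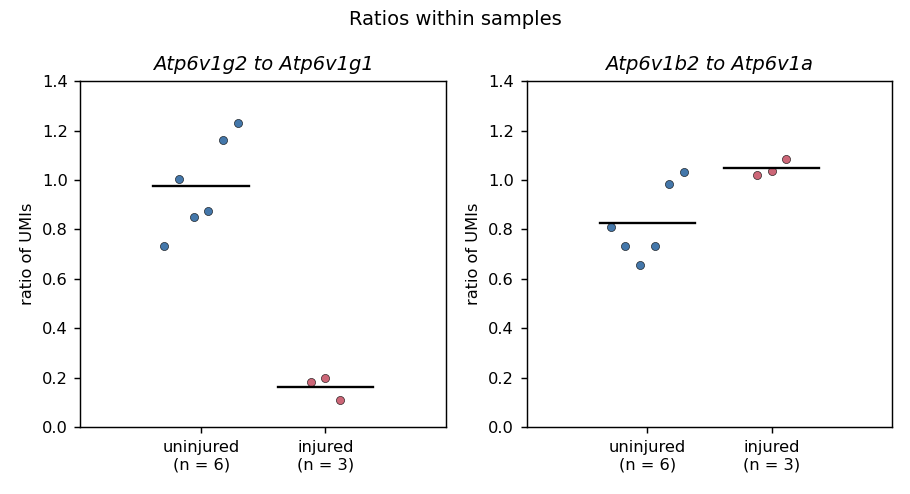
Ratio of UMIs within each sample for Atp6v1g2 to Atp6v1g1 and for Atp6v1b2 to Atp6v1a, with 1 point per sample and a bar at each group's mean. The first ratio is 0.735 to 1.23 in uninjured and 0.110 to 0.202 in injured samples, and the second overlaps between the groups.

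Over all 36 pairs of V1 genes, the log2 ratio had an SD over the 9 samples of 0.11 to 1.33 (median 0.48). The steadiest pairs were Atp6v1d to Atp6v1e1 (SD 0.11), Atp6v1c1 to Atp6v1e1 (SD 0.13) and Atp6v1c1 to Atp6v1d (SD 0.14). These 3 genes fell, and in none of these 3 ratios were the groups apart. The ratio of Atp6v1g1 to Atp6v1g2 varied most. Among uninjured samples alone, Atp6v1f to Atp6v1g1 was steady, at a log2 ratio of 0.31 ± 0.06 (SD, n = 6), and moved to -0.83 ± 0.14 (SD, n = 3) in injured ones. The groups did not overlap in 25 of the 36 ratios, and in 54.4% of all pairs among 1451 genes at least as abundant as the lowest V1 gene, after 4 genes with a count of 0 in a sample were left out. Over the 7 samples other than uninjured 5 and uninjured 6, the SD ran from 0.12 to 1.33, the same 3 pairs were the steadiest, and the groups did not overlap in 28 ratios, against 69.1% of all such pairs. No test was run on these ratios, since the pairs share genes.

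The V1 genes summed to 2549 ± 535 CPM (SD, n = 6) in uninjured samples, against 2283 ± 87.3 CPM (SD, n = 3) after injury. The uninjured sums were 2156, 2306, 2179, 2188, 3162 and 3306 CPM, of which all but uninjured 5 and uninjured 6 fell close to the injured values of 2184, 2316 and 2349 CPM. Without that pair the uninjured mean was 2207 ± 67.0 CPM (SD, n = 4). Per cell, V1 genes gave 73.9 ± 7.71 UMIs (SD, n = 6) in uninjured and 36.5 ± 1.51 (SD, n = 3) in injured samples. In cells thinned to 8000 UMIs, which left out 1.95% of uninjured and 11.9% of injured cells on average, V1 UMIs per cell ran from 17.7 to 19.8 in uninjured 1 to 4, stood at 23.6 and 24.0 in uninjured 5 and uninjured 6, and ran from 16.4 to 17.6 in injured samples. Summed V1 over summed Vo was 0.622 ± 0.026 (SD, n = 6), or 0.637 ± 0.0161 (SD, n = 4) in uninjured 1 to 4, and 0.711 ± 0.049 (SD, n = 3) in injured samples. It was, without Atp6v0c, the most abundant Vo gene, 1.21 ± 0.041 (SD, n = 6) and 1.25 ± 0.0897 (SD, n = 3), with 1.22 to 1.25 in uninjured 1 to 4 and 1.15 and 1.16 in uninjured 5 and uninjured 6. The injured values were 1.21 for injured 1, 1.19 for injured 2 and 1.35 for injured 3/4.

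At least 1 Atp6v1g2 UMI was found in 95.4% ± 3.46 (SD, n = 6) of cells in uninjured and 56.6% ± 9.66 (SD, n = 3) in injured samples. After thinning to 8000 UMIs the shares were 69.5 to 97.0% in the 6 uninjured and 30.8 to 44.2% in the 3 injured samples. In uninjured 1 to 4 alone they were 93.6% ± 2.58 (SD, n = 4) before thinning and 72.0% ± 3.72 (SD, n = 4) after it. In single libraries the thinned share ran from 69.5% (95% exact binomial interval 59.2 to 78.5%) in uninjured 1 to 97.0% (93.6 to 98.9%) in uninjured 6, and in injured 4 it was 29.2% (24.6 to 34.3%). Over all 9 samples, thinned shares did not overlap between groups for Atp6v1c1, Atp6v1d, Atp6v1e1 or Atp6v1g2, each lower in injured samples. Over all tested genes they did not overlap for 33.7%, and 19.1% were without overlap and lower in injured samples. For Atp6v1g1 they were 85.1% ± 8.70 (SD, n = 6) and 95.1% ± 4.67 (SD, n = 3), with overlap through uninjured 5 (93.7%) and uninjured 6 (97.0%). Without these 2 samples its uninjured shares were 75.8 to 84.3% against 90.0 to 99.2% in injured samples, without overlap. The groups were then also apart for Atp6v1a, lower in injured samples (88.4 to 92.2% against 83.0 to 86.9%), and for Atp6v1b2, higher in them (82.4 to 86.5% against 86.9 to 87.9%), as they were for 43.5% of all tested genes over these 7 samples. For Atp6v1h the order of the groups turned with depth, from 81.2% in injured against 90.0% in uninjured samples before thinning to 68.1% against 60.8% after it. The files hold no cells that should lack V1 genes, so the part of free RNA in these shares was not tested.

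**Figure D4:**
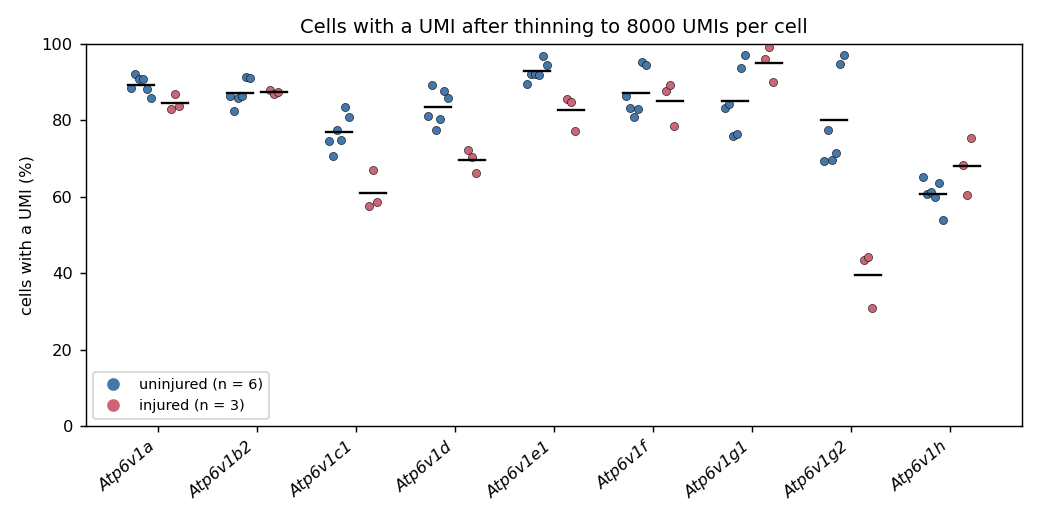
Share of cells with at least 1 UMI of each V1 gene after thinning every cell to 8000 UMIs, in percent, with 1 point per sample and a bar at each group's mean. Atp6v1g2 lies between 69.5 and 97.0% in uninjured samples and between 30.8 and 44.2% in injured ones.

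The other V1 isoforms were close to absent. Atp6v1b1, Atp6v1c2 and Atp6v1e2 stayed under 1 CPM in every sample, and Atp6v1g3 had 0 UMIs, which in uninjured 4 (0 of 644 thinned cells) allows a share of cells with a UMI of up to 0.466%, taken as 3 counts of the total. Atp6v1b1 UMIs were found in 0.164% of thinned uninjured cells on average. These isoforms did not pass the filter on low counts and were not tested.

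Of the 12 tested Vo and accessory genes, out of 13 listed, 2 were higher, 1 was lower and 9 did not pass, with a median log2 fold change of -0.21. Among all genes tested, 21.3% were higher and 22.7% lower. Atp6v0e, for the small e subunit, rose by 1.01 ± 0.15 (log2, SE; edgeR, adjusted p = 0.00021). Tcirg1, for an a subunit, rose by 1.22 ± 0.34 (log2, SE) from 1.78 CPM (edgeR, adjusted p = 0.0114), though the groups overlapped. That call was lost without injured 1, at 1.12 (edgeR, adjusted p = 0.0589), without injured 2, at 0.97 (edgeR, adjusted p = 0.0744), without both, at 0.34 (edgeR, adjusted p = 0.68), with similar libraries summed, at 1.07 (edgeR, adjusted p = 0.119), and over libraries 1 to 4 with the replicate block, at 0.95 (edgeR, adjusted p = 0.0603). Atp6v0a4, another a subunit, fell from 2.62 to 0.716 CPM (edgeR, adjusted p = 0.00447). Its injured samples had only 0.175 to 1.07 CPM, so this change rests on few UMIs. Atp6v0c, the c subunit of the proton-carrying ring, had 2007 ± 520 CPM (SD, n = 6) and 1390 ± 131 CPM (SD, n = 3), with a log2 fold change of -0.53 that did not pass (edgeR, adjusted p = 0.0772), although the groups did not overlap (1565 to 2733 against 1289 to 1538 CPM).

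Of the 13 genes for assembly and disassembly, 12 were tested, of which 3 were lower and 9 did not pass, with a median log2 fold change of -0.27. Among all genes tested, 44.0% passed and 22.7% were lower. Rogdi, of the RAVE complex that joins V1 to Vo, fell from 54.1 ± 21.1 to 16.2 ± 0.832 CPM (SD; log2 fold change -1.73; edgeR, adjusted p = 0.000712). With uninjured 5 and uninjured 6 left out it was -1.32 (edgeR, adjusted p = 5.14e-06). The other RAVE genes of the list did not pass, with log2 fold changes of -0.16 for Dmxl1, -0.33 for Dmxl2 and 0.32 for Wdr7. Vma21, an assembly factor of the endoplasmic reticulum, fell by 0.85 ± 0.25 (log2, SE; edgeR, adjusted p = 0.0151). That call was lost without injured 1, at -0.74 (edgeR, adjusted p = 0.0779), without injured 2, at -0.84 (edgeR, adjusted p = 0.0548), with similar libraries summed, at -0.81 (edgeR, adjusted p = 0.0825), and among cells with 3 to 5% Malat1, at -0.40 (edgeR, adjusted p = 0.0924). Atp6ap1l fell by 0.93 ± 0.24 (log2, SE; edgeR, adjusted p = 0.00844). It did not pass among cells without Xist UMIs, at -0.59 (edgeR, adjusted p = 0.12), or with 3 to 5% Malat1, at -0.45 (edgeR, adjusted p = 0.183). The most abundant of the list, Oxr1, had 272 and 291 CPM and did not pass.

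Of 8 lysosomal partners, 1 was higher, 2 were lower and 5 did not pass, with a median log2 fold change of -0.21. The share past the test among all genes was 44.0%. Lamtor3, of the Ragulator complex that holds nutrient signalling at the lysosome, fell from 80.9 to 35.0 CPM (log2 fold change -1.21 ± 0.23, SE; edgeR, adjusted p = 0.00119), while Lamtor5, the most abundant member in uninjured samples, had 156 and 144 CPM and did not pass. Of the transcription factors of lysosomal genes, Tfe3 rose from 12.4 to 28.7 CPM (edgeR, adjusted p = 0.000673) and Tfeb fell from 4.96 to 1.68 CPM (edgeR, adjusted p = 0.00255). With injured 3/4 as the only injured sample, Atp6v0e and Tfeb passed, and Tcirg1, Atp6v0a4, Rogdi, Vma21, Atp6ap1l, Lamtor3 and Tfe3 did not. Their directions were the same there, with log2 fold changes of -1.73 for Rogdi, -1.30 for Atp6v0a4, -0.64 for Vma21, -0.89 for Atp6ap1l, -1.04 for Lamtor3 and 0.91 for Tfe3.

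The mean of the 9 V1 genes' centred log2 CPM was 0.40 and 0.44 in uninjured 5 and uninjured 6 and -0.20 to -0.03 in the other 7 samples. Among 3347 genes, those with the highest Pearson r with it over the 9 samples were Vps29 (0.989), Arpp19 (0.989), Polr2k (0.988), Gabarapl1 (0.987) and Ndufs8 (0.986), and those with the lowest were Fam193a (-0.997), Hecw2 (-0.992) and Zmynd8 (-0.990). Without uninjured 5 and uninjured 6 these became 0.752, 0.788, 0.663, 0.663, 0.841, -0.921, -0.762 and -0.730 over 7 samples, so the high values rest largely on that pair. These correlations describe the samples and were not tested.

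At least 2 Opn4 UMIs after thinning were taken as a sign of melanopsin RGCs. Such cells numbered 48 in uninjured libraries (5 to 11 in each) and 47 in injured libraries (8 to 16 in each). Their Atp6v1g2 level was 1.41 against 2.29 UMIs per thinned cell in the other cells of uninjured libraries, lower in 6 of 6, and 0.834 against 0.535 in injured libraries, higher in 4 of 4. Atp6v1g1 was 3.09 against 4.53 UMIs in injured libraries, lower in 4 of 4, and 2.27 against 2.32 in uninjured ones, lower in 4 of 6. The higher level in injured Opn4 cells was not limited to Atp6v1g2: Atp6v1a, Atp6v1c1, Atp6v1d and Atp6v1e1 were also higher in 4 of 4, Atp6v1e1 at 2.62 against 1.93 UMIs. Atp6v1b2 was lower on average, at 1.77 against 2.23 UMIs, and higher in 1 of 4. In uninjured libraries Atp6v1e1 was also lower in Opn4 cells, at 2.91 against 3.67 UMIs, and higher in 1 of 6. Atp6v1d was higher there in 5 of 6. Injured 3 and injured 4 share cells, and the difference between the groups was not tested. Cells with at least 3 Spp1 and 1 Kcng4 UMIs, a sign of alpha RGCs, numbered 0 and 1, too few to describe.

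In injured 3, the 74 cells without mCherry UMIs had Atp6v1g1 at 180 CPM of their own UMIs (95% Poisson interval 155 to 208), against 675 CPM (657 to 693) in the 453 cells with them. Atp6v1e1 had 82.6 CPM (65.8 to 102) against 263 CPM (252 to 274). Atp6v1h was closer, at 179 CPM (154 to 207) against 231 CPM (220 to 242), and in injured 4 at 211 CPM (179 to 246) against 225 CPM (212 to 238). All V1 genes were lower in cells without mCherry UMIs in injured 3 and in injured 4, among them Atp6v1g2, in injured 3 at 35.8 CPM against 72.7 CPM. Ribosomal protein UMIs reached at least 1% in 428 of 527 cells of injured 3 and 391 of 471 of injured 4. In injured 1 and injured 2 they did so in 337 of 338 and 272 of 273 cells, and in uninjured 1 in 86 of 98. Whether the cells without mCherry UMIs were those poor in ribosomal protein UMIs was not tested. The intervals given cover counting error only.

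Other measures moved with injury beside the V1 values, and their part in the results was not tested. Malat1, a nuclear RNA, took a median of 1.72 to 4.82% of UMIs per cell in uninjured and 6.37 to 7.78% in injured libraries. Among cells with 3 to 5% Malat1, of which uninjured 5 and uninjured 6 held only 7 and 8, 4 V1 genes and 32.9% of all genes passed the test, and Atp6v1c1, at -0.44 (edgeR, adjusted p = 0.0528), and Atp6v1d, at -0.33 (edgeR, adjusted p = 0.116), did not. There the log2 fold change of Atp6v1g2 was -0.81 in place of -1.72 (edgeR, adjusted p = 0.0355), and the difference in log2 ratio of Atp6v1g2 to Atp6v1g1 was -1.97 in place of -2.59 (exact permutation p = 0.0238). The log2 fold change of Atp6v1e1 among these cells was -0.49 in place of -0.75 (edgeR, adjusted p = 0.0352). For Atp6v1g1 it was 1.12 in place of 0.94, and for Atp6v1h 0.62 in place of 0.65. Mitochondrial genes took a median of 2.84 to 5.63% of UMIs in the uninjured libraries, against 1.48 to 3.15% in the injured, and cytosolic ribosomal protein genes 2.43 to 4.38% against 5.19 to 5.98%. Cells with at least 3 marker genes of another retinal class made up 8.96 to 46.5% of uninjured and 17.2 to 30.5% of injured libraries. A marker counted with 1 UMI in unthinned cells, so this share can depend on depth. It was highest in uninjured 4, which also had the highest median UMIs per cell, 34337. The marker lists also hold genes that RGCs express, such as Pax6, so the share is not one of other cell classes. Without the cells so marked, the same 6 V1 genes passed in the same directions, as did 42.6% of all genes.

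The counts of marker genes below stand beside 21.3% higher and 22.7% lower among all genes tested. Of 8 amacrine markers 2 were higher and 1 was lower, with a summed level of 414 to 541 CPM in uninjured and 348 to 456 CPM in injured samples. C1ql2 rose from 17.6 to 196 CPM and Slc6a9 from 6.02 to 20.6 CPM, while Pax6, the most abundant in uninjured samples and one that RGCs also express, fell from 325 to 105 CPM. Of 7 Muller glia markers 6 were tested, 3 higher (Glul, Rlbp1, Vim) and 2 lower (Apoe, Dkk3), at 118 to 185 CPM and 132 to 171 CPM in sum. Vim rose from 1.23 to 39.1 CPM, and Dkk3, the most abundant in uninjured samples, fell from 87.7 to 15.6 CPM. Rod markers summed to 3.37 to 20.6 CPM and 10.5 to 32.8 CPM; of 6, 2 were tested, of which Pde6b rose and Sag, the most abundant in uninjured samples, did not pass. Microglia and macrophage markers summed to 5.15 to 17.5 CPM and 6.18 to 18.6 CPM, and of the 2 tested out of 6, Cx3cr1 rose from 3.39 to 9.66 CPM, with overlapping groups, and P2ry12, at 4.94 and 2.48 CPM, did not pass (edgeR, adjusted p = 0.078). Cone, bipolar, endothelial and astrocyte markers each summed to under 8 CPM in every sample, and Pax2, the 1 gene of these lists that was tested, did not pass (edgeR, adjusted p = 0.249). Of 7 RGC markers 1 was higher (Tubb3) and 4 were lower (Rbpms, Sncg, Pou4f1, Nefl), with Sncg as the most abundant in uninjured and Tubb3 in injured samples. Rbpms fell by 1.21 on the log2 scale (edgeR, adjusted p = 3.85e-05).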

How the data were processed

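Per the labels and the submitters' processing notes, RGCs were isolated from pooled retinas, libraries were made with a 10x 3′ kit, and the values the authors deposited are raw UMI counts, made with Cell Ranger 7.0.1 on mm39. The paper names an earlier Cell Ranger, run with default settings, and another kit and sequencer. Default handling of intronic reads differs between Cell Ranger versions, so whether they were counted here is not known. For every library, the counts of its cells were added up per gene (pandas 2.3.3, scipy 1.17.1 and numpy 2.4.6 under Python 3.11.15).

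Injured 3 and injured 4 were averaged. For 11546 genes the average lay midway between whole numbers and was rounded to the even one; rounding up and not rounding were added as alternatives after seeing the data, as was leaving out uninjured 5 and uninjured 6. Sums were filtered (filterByExpr), scaled (TMM) and tested with edgeR 4.0.16 (limma 3.58.1, R 4.3.3; quasi-likelihood, robust, no covariates) across all genes (Benjamini-Hochberg, threshold 0.05); DESeq2 1.42.0 was an alternative. The fit was tested on simulated data. Within-sample ratios were compared by exact two-sided permutation over samples. No cell was left out and no doublet caller was run on these filtered matrices. Named genes were the 9 V1 genes and, of the other lists, those past the threshold and the most abundant. The other RAVE genes were named beside Rogdi. For the likeness, genes with a mean log2 CPM of 6 or more were used, and 5 genes with 0 in a sample were left out. Promoters were read from GRCm39 with GENCODE vM39. Members and lists were chosen with earlier results of these data known.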

Additional observations from a re-analysis of the deposited data

Results flagged for a closer look

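Among the uninjured samples, 12 measures (the CPM of each V1 gene, both ratios and the summed V1 level) were checked for a single sample far from the other 5 by Dixon's ratio of gap to range, and 0 passed its 95% critical value. This check looks at 1 sample at a time and does not address a pair such as uninjured 5 and uninjured 6. Groups of 3 injured samples were not checked.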

How the results depend on the processing

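Under all 31 alternatives run, Atp6v1e1 and Atp6v1h kept their direction and their side of the threshold. The number of genes past the threshold was 6256, and 3528 among cells with 3 to 5% Malat1, where uninjured 5 and 6 kept 7 and 8 cells, and 3160 with injured 1 and 2 left out, where 1 injured sample is assumed to vary like the uninjured ones. The number of V1 genes was 3 with similar libraries summed and 2 with injured 1 and 2 left out. Rounding midway averages up gave 6237 genes and no rounding 6254, with 6 V1 genes each; both were chosen after seeing the data. Without uninjured 5 and 6, also chosen afterwards, 7687 genes and 7 V1 genes passed. Atp6v1f reversed to 0.13 among cells with 3 to 5% Malat1, 0.13 without uninjured 5 and 6, and, over libraries 1 to 4, 0.12 with the replicate block and 0.12 without it, and passed the test in none of these. The cause was not tested. The median log2 fold change of all genes was -0.03, and -0.13 with DESeq2 over 25737 genes. There the 6 V1 genes passed in the same directions, and 7041 of all 25737 genes passed.

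The numbers in the labels did not pair the libraries: same-numbered deviations correlated at -0.06, 0.01, -0.05 and -0.05, and 0 of the 4 injured libraries correlated best with the uninjured library of its number. Over libraries 1 to 4, 7782 genes and 7 V1 genes passed with the replicate block and 8230 and 7 without the block. These fits, and the block values of the ratios, count injured 3 and injured 4 as separate samples although they share cells.

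The difference in log2 ratio of Atp6v1g2 to Atp6v1g1 kept its sign in all 23 alternatives and was smallest among cells with 3 to 5% Malat1, at -1.97 (exact p = 0.0238). It missed 0.05 in the exact test where too few samples were left to reach it: -2.74 with similar libraries summed (p = 0.2), -2.32 without injured 3 and 4 (p = 0.0714), -3.12 without injured 1 and 2 (p = 0.286), -2.43 without uninjured 5 and 6 (p = 0.0571) and -2.57 with the replicate block (p = 0.125). Leaving out each library in turn gave -2.76 to -2.52, with exact p = 0.0714 without injured 1 or without injured 2, the smallest that 6 against 2 samples allow. For Atp6v1b2 to Atp6v1a the difference was 0.34 thinned, 0.36 with at most 10% mitochondrial UMIs, 0.35 with 3 to 5% Malat1, 0.37 with similar libraries summed, 0.34 without injured 3 and 4, 0.42 without injured 1 and 2, 0.52 without uninjured 5 and 6, 0.53 with the replicate block, and 0.30 to 0.43 leaving out each library, with exact p up to 0.286. In the thinned, mitochondrial and Malat1 settings all 9 samples were present; the cause was not tested.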
